A study of Mus musculus with 9 samples.

Results

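The genes described here are 10 circadian clock genes, Nr1d1, Nr1d2, Per1, Per2, Per3, Dbp, Tef, Cry1, Clock and Npas2, chosen by their symbol in the annotation of the array. For 9 of the 10 a probe set with that symbol alone was present, 1 probe set each, among 19937 genes with such a probe set in all. The expression of Npas2 was not analysed here. RNA of whole oviduct, the tube in which eggs are fertilised and carried to the uterus, of unstimulated CD1 females (mice given no hormones) was measured on Affymetrix arrays. The 3 groups were sexually mature females in diestrus, the progesterone phase of the cycle, sexually mature females in estrus, the phase of mating and ovulation, and sexually immature females labelled d21, with 3 arrays each. Each array carried RNA pooled from the tissue of 5 animals, so that p-values measure the spread between pools. The labels used here state neither the age of the mature mice nor the hour at which tissue was taken. Time of collection and group therefore cannot be told apart for any difference between groups below. Nor do the labels used here state whether the 5 animals of a pool were taken at the same hour.

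The clock of mammalian cells is a feedback loop of transcription. CLOCK, or its relative NPAS2, pairs with BMAL1 (gene Arntl) and activates genes that hold an E-box. Among these are the Per and Cry genes, whose proteins block the CLOCK and BMAL1 pair, the Nr1d genes, whose REV-ERB proteins repress Arntl, and Dbp and Tef, whose proteins activate genes that hold a D-box. Most tissues run this loop, those of the reproductive tract included, and Dbp and Nr1d1 swing widely over a day while Arntl runs in the opposite phase. RNA of clock genes thus depends on the hour, and it can also respond to hormones, Per1 for instance to glucocorticoids.

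The elements through which the loop acts can be seen in the bases just before the start of some of these genes. RefSeq (GRCm38.p6) promoter windows were found for 9 of the 10 genes, all but Per2, as 13 windows, and the 250 bases before the start were searched on both strands. The E-box CACGTG was found for Cry1, Per1 and Tef, against 6.86% of all 27025 genes with a window. The D-box, as TTATGTA or TTACGTA, was found for Per3, against 3.19% of genes, and AGGTCA, the core bound by REV-ERB and ROR proteins, for Clock, Nr1d2 and Per1, against 15.8%. The 3 motifs were not found in the windows of Nr1d1, Dbp and Npas2, which says only that these letters are not in these bases. The core bound by the glucocorticoid receptor, AGAACA, was found for Tef, against 18.2% of genes. The windows below show, in capitals, the E-box of Cry1, the E-box and the AGGTCA core of Per1 (the core on the other strand), the paired D-boxes of Per3, the AGGTCA core of Nr1d2 and, for comparison, the 3 E-boxes of Ciart, a clock repressor gene outside the 10. They lie at chr10:85185055-85185304 on the minus strand (Cry1), chr11:69098699-69098948 on the plus strand (Per1, the upstream of its 2 windows), chr4:151044666-151044915 on the minus strand (Per3), chr14:18239107-18239356 on the minus strand (Nr1d2) and chr3:95882229-95882478 on the minus strand (Ciart), and are written 5′ to 3′ towards the gene.
Cry1: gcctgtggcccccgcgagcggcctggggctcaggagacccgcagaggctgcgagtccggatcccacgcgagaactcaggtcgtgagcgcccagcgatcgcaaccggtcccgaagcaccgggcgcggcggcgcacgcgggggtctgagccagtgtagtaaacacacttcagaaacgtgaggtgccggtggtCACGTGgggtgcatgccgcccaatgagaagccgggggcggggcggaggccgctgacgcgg
Per1: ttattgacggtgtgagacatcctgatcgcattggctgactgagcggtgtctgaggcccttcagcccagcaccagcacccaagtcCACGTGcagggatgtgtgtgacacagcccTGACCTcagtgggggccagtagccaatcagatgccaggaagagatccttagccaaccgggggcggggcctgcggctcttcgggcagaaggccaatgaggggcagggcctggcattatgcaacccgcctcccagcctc
Per3: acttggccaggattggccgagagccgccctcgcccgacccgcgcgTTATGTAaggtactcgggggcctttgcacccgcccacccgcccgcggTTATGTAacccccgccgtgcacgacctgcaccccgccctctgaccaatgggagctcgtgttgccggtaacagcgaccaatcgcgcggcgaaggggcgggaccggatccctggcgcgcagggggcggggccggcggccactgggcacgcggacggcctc
Nr1d2: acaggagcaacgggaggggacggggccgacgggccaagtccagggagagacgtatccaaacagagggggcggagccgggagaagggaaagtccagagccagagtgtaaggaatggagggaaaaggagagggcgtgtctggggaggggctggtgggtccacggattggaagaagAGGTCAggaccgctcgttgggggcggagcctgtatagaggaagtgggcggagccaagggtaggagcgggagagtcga
Ciart: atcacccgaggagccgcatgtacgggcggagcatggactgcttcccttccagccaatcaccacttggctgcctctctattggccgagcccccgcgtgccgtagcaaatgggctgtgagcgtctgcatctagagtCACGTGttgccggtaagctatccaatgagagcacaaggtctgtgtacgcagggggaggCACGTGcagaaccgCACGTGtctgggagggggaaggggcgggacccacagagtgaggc

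The E-box of Cry1 began 60 bases before the start and that of Per1 166 bases before it. The D-boxes of Per3 began 205 and 158 bases before the start, and the E-boxes of Ciart 116, 58 and 44 bases before it. A match of letters is a description of the window and no evidence that a factor binds there.

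All values are log2 intensities as deposited, after robust multi-array averaging (RMA). The medians of the 9 arrays lay between 8.85 and 8.90, and the 9 clock genes lay above the median on every array. Over 28214 probe sets the correlation between arrays of one group was 0.992 to 0.996, no pair of arrays was identical, and the median standard error (SE) of a difference between groups was 0.08. Lists of markers were set beside the tissue label: the 8 ciliated cell markers averaged 11.24 to 11.63 over the arrays and the 5 measured secretory cell markers 10.78 to 11.63, both well above the array medians. The listed secretory gene Ovgp1 was not among the 5 measured. These averages do not by themselves establish that the tissue was oviduct.

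Nr1d1, Nr1d2, Dbp, Tef, Per3 and, barely, Per1 had their highest mean in diestrus, Cry1 and Clock had their lowest mean there, and Per2 had its highest mean in estrus. Nr1d1 averaged 11.83 ± 0.32 in diestrus, 10.71 ± 0.52 in estrus and 10.75 ± 0.62 in immature oviduct (SD, n = 3 each), and Clock averaged 10.53 ± 0.07 in diestrus, 10.72 ± 0.05 in estrus and 10.80 ± 0.02 in immature oviduct. No clock gene passed the test in any comparison, and arrays of the same group differed by up to 1.29 (Dbp in immature oviduct). The threshold was an adjusted p under 0.05 in limma's moderated test, with Benjamini-Hochberg adjustment over the 28214 probe sets. By this rule 1.00% of all probe sets passed for diestrus against immature, 0.159% for diestrus against estrus and 0.0851% for estrus against immature, and 0 of the 9 clock genes in each. At an unadjusted p under 0.05 stood 7 of the 9 for diestrus against immature, 5 for diestrus against estrus and 1 for estrus against immature, beside 13.4%, 9.33% and 6.52% of all probe sets. The median difference of the 9 genes was 0.40 for diestrus minus immature, 0.25 for diestrus minus estrus and 0.11 for estrus minus immature, against 0.01, -0.01 and 0.01 over all probe sets. RNA of whole tissue was measured, so that fewer cells of a type and less RNA per cell cannot be told apart.

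**Figure D1:**
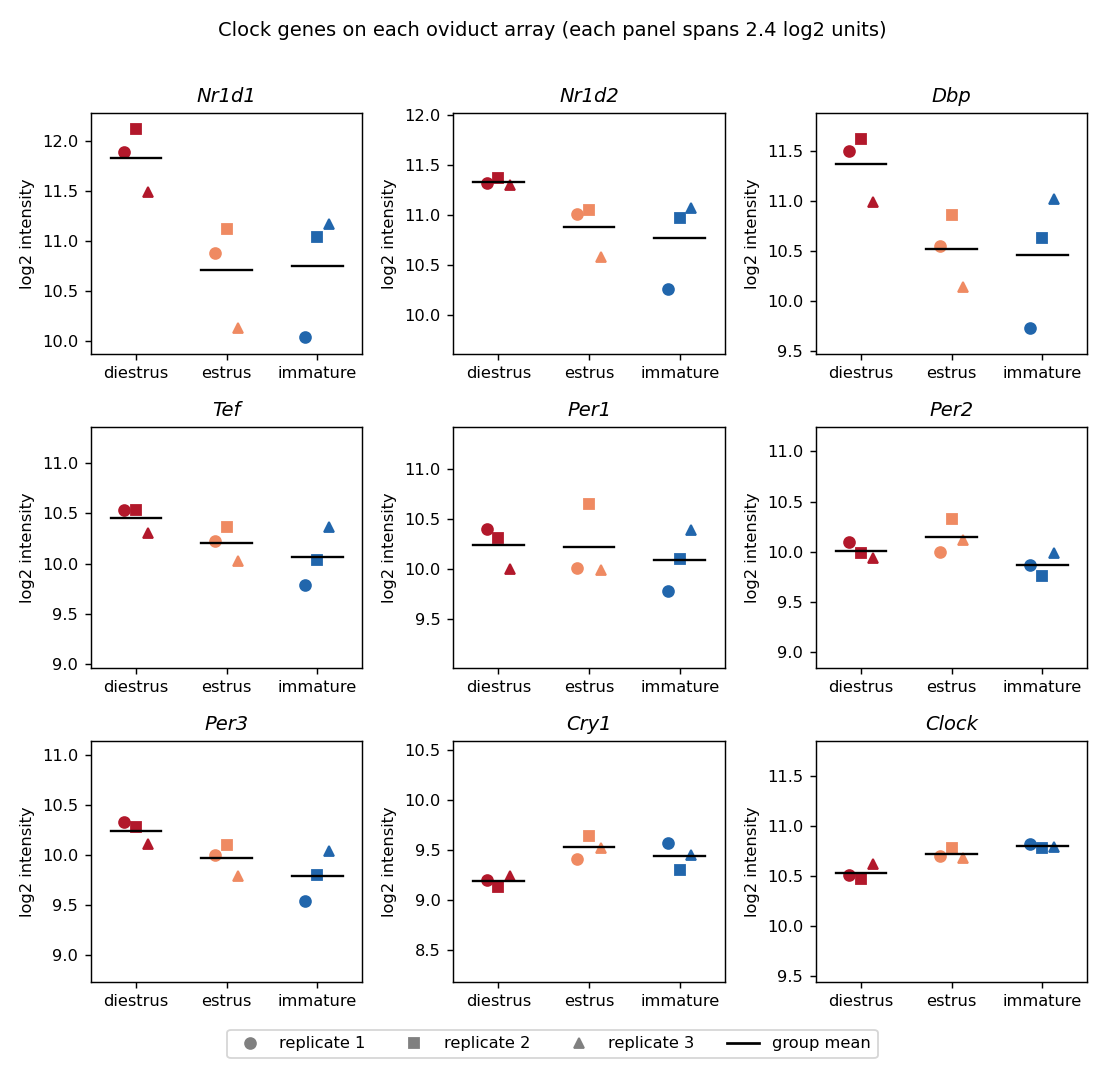
Log2 intensity (vertical axis) of 9 clock genes on each array, by group (horizontal axis), with a symbol for each replicate and a line at the group mean; each panel spans the same number of log2 units. Nr1d1, Nr1d2 and Per3 have all 3 diestrus arrays above the other 6, Cry1 and Clock have them below, and immature 1 is the lowest array for 6 of the 9 genes.

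The REV-ERB genes encode nuclear receptors that bind haem and repress transcription. Nr1d1 (REV-ERB alpha) stood at 11.89, 12.11 and 11.48 on diestrus 1, 2 and 3, at 10.88, 11.12 and 10.13 on estrus 1, 2 and 3, and at 10.04, 11.04 and 11.17 on immature 1, 2 and 3. The lowest diestrus array lay 0.32 above the highest of the other 6, while estrus 3 and immature 1 lay far below the other arrays of their groups. Nr1d1 differed by 1.08 ± 0.33 between diestrus and immature (SE; 95% interval 0.35 to 1.81; limma adjusted p = 0.179). Between diestrus and estrus it differed by 1.12 ± 0.33 (interval 0.39 to 1.85; adjusted p = 0.261), and between estrus and immature by -0.04 ± 0.33 (interval -0.77 to 0.69; adjusted p = 0.984). The lowest and the highest array were 4.21-fold apart in intensity.

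Nr1d2 (REV-ERB beta), the paralog with an overlapping role, gave the tightest diestrus values of the genes with a high diestrus level. It stood at 11.32, 11.37 and 11.30 in diestrus, at 11.01, 11.05 and 10.58 in estrus and at 10.26, 10.97 and 11.07 in immature oviduct. All 3 diestrus arrays again lay above the other 6, and again estrus 3 and immature 1 were the low ones. The difference was 0.57 ± 0.20 for diestrus minus immature (adjusted p = 0.244), 0.45 ± 0.20 for diestrus minus estrus (adjusted p = 0.515) and 0.11 ± 0.20 for estrus minus immature (adjusted p = 0.921).

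Dbp and Tef encode related bZIP activators of the PAR family that bind D-boxes and drive clock output. Dbp stood at 11.50, 11.62 and 10.99 in diestrus, at 10.56, 10.87 and 10.15 in estrus and at 9.74, 10.63 and 11.03 in immature oviduct. Diestrus 3 lay just below immature 3, so that diestrus and immature overlapped while diestrus and estrus did not. Dbp differed by 0.91 ± 0.31 for diestrus minus immature (interval 0.21 to 1.60; adjusted p = 0.238), by 0.85 ± 0.31 for diestrus minus estrus (adjusted p = 0.398) and by 0.06 ± 0.31 for estrus minus immature (adjusted p = 0.976). Its range over the arrays was 3.70-fold, next to Nr1d1 among the 9 genes. Tef stood at 10.53, 10.54 and 10.31 in diestrus, at 10.23, 10.36 and 10.03 in estrus and at 9.79, 10.04 and 10.36 in immature oviduct. Diestrus 2 was again the highest array and immature 1 the lowest, over a smaller range of 1.68-fold, and the groups overlapped in every pair. The differences of Tef were 0.40 ± 0.14 for diestrus minus immature, 0.25 ± 0.14 for diestrus minus estrus and 0.14 ± 0.14 for estrus minus immature (adjusted p = 0.257, 0.675 and 0.871).

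The 3 Period genes encode repressors that act with the CRY proteins, and they did not share one pattern. Per3 stood at 10.33, 10.28 and 10.11 in diestrus, at 10.004, 10.11 and 9.79 in estrus and at 9.54, 9.80 and 10.04 in immature oviduct. Diestrus 3 lay only 0.003 above estrus 2, so that the separation of diestrus from the other 6 arrays was marginal. Per3 differed by 0.44 ± 0.13 for diestrus minus immature (interval 0.16 to 0.73; adjusted p = 0.160), by 0.27 ± 0.13 for diestrus minus estrus (adjusted p = 0.570) and by 0.17 ± 0.13 for estrus minus immature (adjusted p = 0.854). Per1, which can also be induced by glucocorticoids, stood at 10.39, 10.31 and 9.997 in diestrus, at 10.003, 10.65 and 9.99 in estrus and at 9.78, 10.10 and 10.39 in immature oviduct. Its 3 groups overlapped throughout, with estrus 2 the highest array. Per1 differed by 0.15 ± 0.20 for diestrus minus immature, by 0.02 ± 0.20 for diestrus minus estrus and by 0.13 ± 0.20 for estrus minus immature, with intervals within -0.43 to 0.60 (adjusted p = 0.817, 0.999 and 0.917). Per2 stood at 10.09, 9.99 and 9.94 in diestrus, at 9.997, 10.33 and 10.11 in estrus and at 9.86, 9.76 and 9.99 in immature oviduct. Its highest group was estrus, whose 3 arrays all lay above the immature ones by a margin of less than 0.01 at the nearest point. Per2 differed by 0.28 ± 0.09 for estrus minus immature, by 0.14 ± 0.09 for diestrus minus immature and by -0.14 ± 0.09 for diestrus minus estrus (adjusted p = 0.594, 0.592 and 0.777).

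Cry1 encodes a strong repressor of the CLOCK and BMAL1 pair and is transcribed late in the cycle of the loop. It stood at 9.20, 9.13 and 9.24 in diestrus, at 9.41, 9.65 and 9.52 in estrus and at 9.57, 9.30 and 9.45 in immature oviduct. All 3 diestrus arrays lay below the other 6, with a gap of 0.06. Cry1 differed by -0.25 ± 0.08 for diestrus minus immature (adjusted p = 0.221), by -0.34 ± 0.08 for diestrus minus estrus (interval -0.52 to -0.15; adjusted p = 0.179) and by 0.09 ± 0.08 for estrus minus immature (adjusted p = 0.870). Clock itself stood at 10.51, 10.47 and 10.62 in diestrus, at 10.70, 10.78 and 10.68 in estrus and at 10.82, 10.78 and 10.79 in immature oviduct. No pair of groups overlapped, in the order diestrus, estrus, immature from low to high, although the nearest arrays of estrus and immature were less than 0.01 apart. Clock came closest to the threshold: it differed by -0.26 ± 0.06 for diestrus minus immature (interval -0.39 to -0.14; adjusted p = 0.0701), by -0.18 ± 0.06 for diestrus minus estrus (adjusted p = 0.293) and by -0.08 ± 0.06 for estrus minus immature (adjusted p = 0.854). It also had the smallest spread of the 9 genes, 1.27-fold over all arrays.

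**Figure D2:**
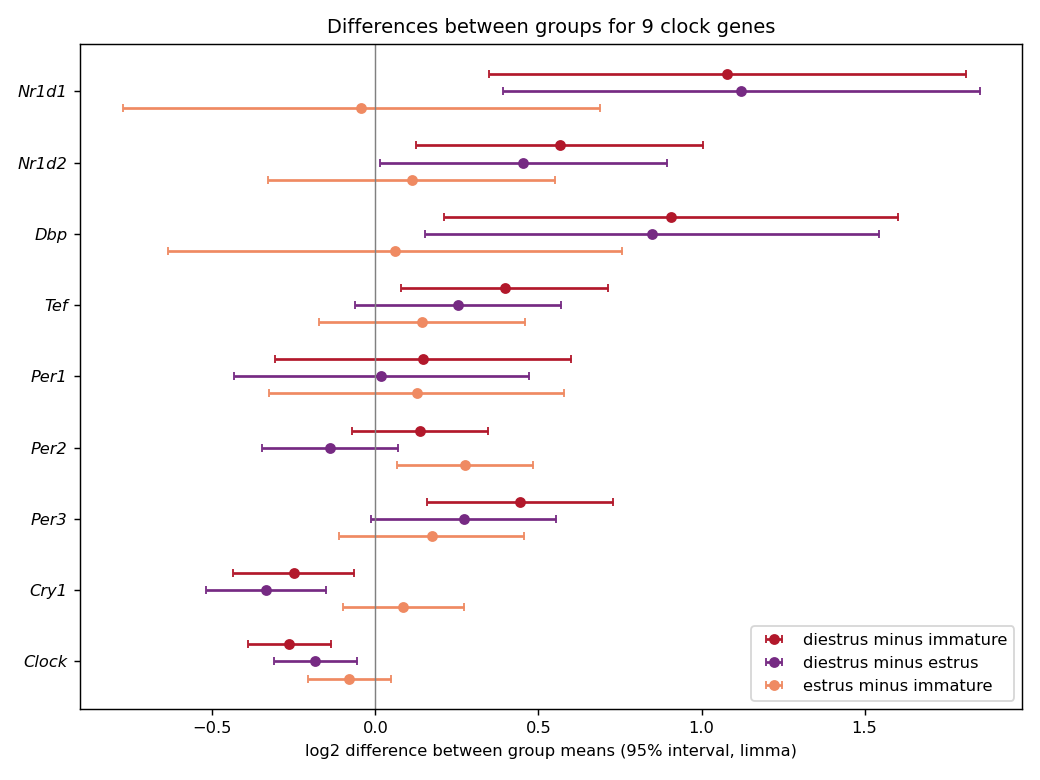
Log2 difference between group means (horizontal axis) of 9 clock genes (vertical axis) in the 3 comparisons, with limma's 95% interval, not adjusted over genes. The intervals of Nr1d1, Nr1d2, Dbp, Tef and Per3 lie above 0 and those of Cry1 and Clock below 0 for diestrus minus immature, while for estrus minus immature the intervals of the genes other than Per2 include 0.

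Separation of the groups was set beside that of all probe sets. Diestrus lay wholly above immature for 3 of the 9 genes (Nr1d1, Nr1d2 and Per3) and wholly below it for 2 (Cry1 and Clock), against 7.52% and 10.9% of all probe sets. It lay wholly above estrus for 4 (Nr1d1, Nr1d2, Dbp and Per3) and wholly below it for 2 (Cry1 and Clock), against 4.93% and 6.85%. Estrus lay wholly above immature for Per2 and wholly below it for Clock, against 3.19% and 6.62%. The 3 diestrus arrays lay above all 6 others for Nr1d1, Nr1d2 and Per3 and below all 6 for Cry1 and Clock, against 2.12% and 4.47% of probe sets. These genes were proposed with earlier results of these arrays known, and they belong to one loop, so the counts describe the arrays and are not independent of each other. Both comparisons with immature oviduct used the same immature arrays, and both diestrus comparisons the same diestrus arrays.

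Spread within groups was large for most of the clock genes. The residual SD, the spread of arrays around their group means, had a median of 0.21 over the 9 genes, against 0.10 over all probe sets. It was above that general median for 8 of the 9, the exception being Clock (0.05), and above the 90th percentile of all probe sets, 0.18, for 6. Nr1d1 (0.50) and Dbp (0.48) had a larger residual SD than 99.6% and 99.5% of probe sets, Per1 (0.30) than 97.96%, Nr1d2 (0.30) than 97.7%, Tef (0.21) than 93.8% and Per3 (0.18) than 90.9%. Cry1 stood at 60.0% and Per2 at 72.9% on the same scale.

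**Figure D3:**
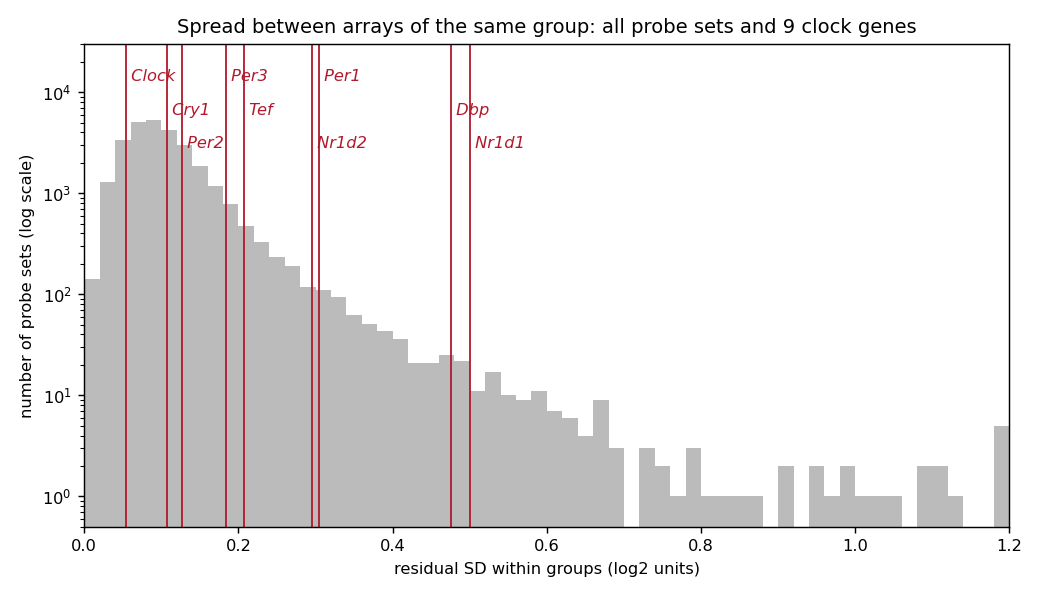
Number of probe sets (vertical axis, log scale) by residual SD within groups in log2 units (horizontal axis; the last bar, from 1.18, holds all larger values), with a line for each of 9 clock genes. Nr1d1 and Dbp lie far in the tail and Clock on the low side of the peak.

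The arrays that stood apart were the same for several genes. Immature 1 was the lowest of the 9 arrays for 6 of the 9 clock genes (Nr1d1, Nr1d2, Per1, Per3, Dbp and Tef), while 10.1% of all probe sets had their lowest value there, and it was the highest for Clock. Relative to the immature mean, Nr1d1 on immature 1 deviated by -0.71, Dbp by -0.73 and Nr1d2 by -0.50. Arntl, the gene of BMAL1 and a target of REV-ERB repression, deviated by 0.44 there, in the opposite direction. In estrus, Nr1d1 deviated by -0.58 on estrus 3, Dbp by -0.38 and Nr1d2 by -0.30, with Arntl at 0.12. In diestrus it was diestrus 3 that was low for Nr1d1 (-0.34) and Dbp (-0.38), with Arntl at 0.14. So in each group the array lowest in Nr1d1 and in Dbp was the array highest in Arntl. The other end did not match in estrus, where Nr1d1 and Dbp were highest on estrus 2 but Arntl was lowest on estrus 1 (8.89, against 8.97 on estrus 2). On the diestrus arrays Arntl lay below the array medians, where a signal above background was not established. Diestrus 2, with the highest Nr1d1, Nr1d2, Dbp and Tef of the 9 arrays, had the lowest Cry1, Clock and Arntl.

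**Figure D4:**
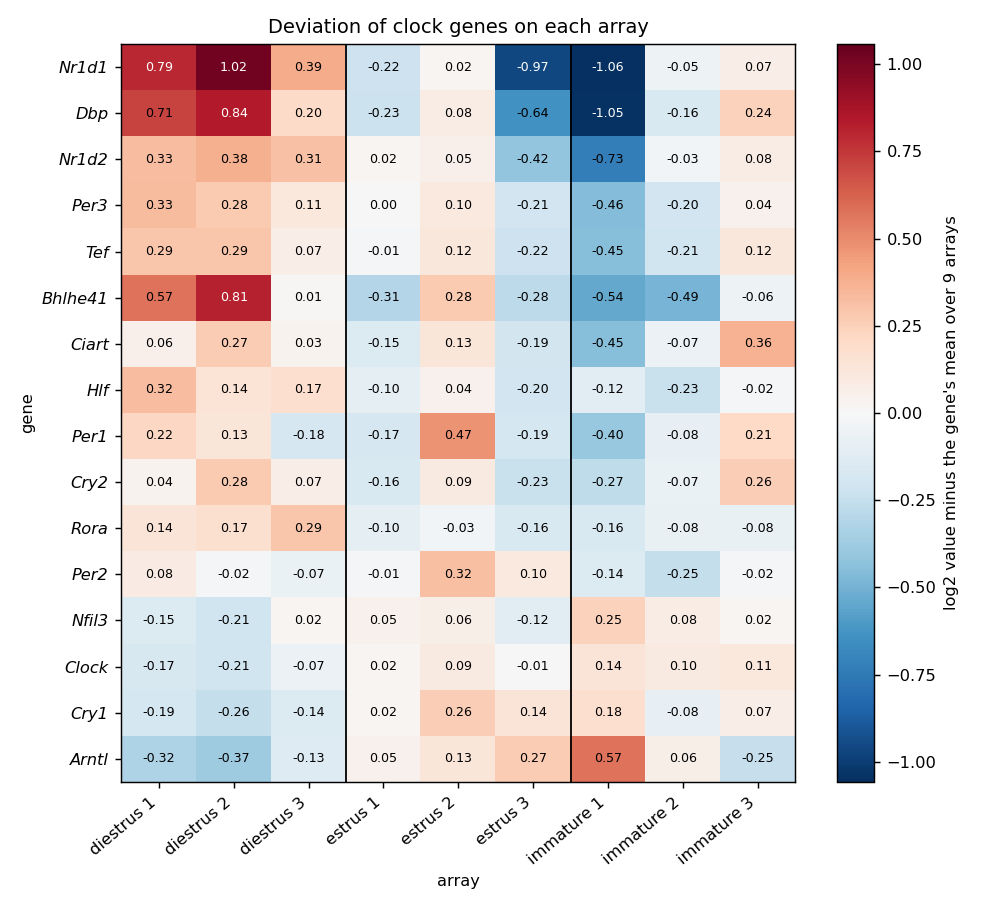
Log2 value minus the gene's own mean over 9 arrays (colour and number) for the 9 clock genes and 7 further genes of the loop (rows), on each array (columns, groups set apart by lines). Immature 1 and estrus 3 are low and the diestrus arrays high for Nr1d1, Dbp and Nr1d2, and Arntl in the bottom row runs the other way.

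Leaving out these arrays moved the differences. Without immature 1, diestrus minus immature was 0.72 for Nr1d1, 0.54 for Dbp, 0.31 for Nr1d2, 0.26 for Tef, 0.32 for Per3 and -0.01 for Per1. Without estrus 3, diestrus minus estrus was 0.83 for Nr1d1, 0.66 for Dbp, 0.30 for Nr1d2, 0.16 for Tef and 0.18 for Per3. Dbp, Nr1d2 and Tef thereby moved by more than 1.5 times in one or the other comparison, and the direction of the differences named here stayed except for Per1. Smaller differences moved as far when other arrays were left out: for Per2, diestrus minus estrus was -0.21 without estrus 1 and -0.05 without estrus 2, and diestrus minus immature was 0.08 without immature 2. Without immature 1, estrus minus immature was 0.0063 for Tef, 0.05 for Per3 and 0.15 for Cry1.

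Among 20 other clock genes with a probe set of 1 symbol, 0 passed limma's test in any comparison, with 5 at an unadjusted p under 0.05 for diestrus minus immature, 5 for diestrus minus estrus and 0 for estrus minus immature. Over all probe sets, 13.4%, 9.33% and 6.52% stood under that p in these comparisons. Their median difference was -0.01 for diestrus minus immature, 0.03 for diestrus minus estrus and 0.00 for estrus minus immature. Arntl stood at 8.52, 8.47 and 8.71 in diestrus, at 8.89, 8.97 and 9.11 in estrus and at 9.41, 8.90 and 8.59 in immature oviduct. It differed by -0.43 ± 0.17 for diestrus minus estrus and by -0.41 ± 0.17 for diestrus minus immature (limma adjusted p = 0.471 and 0.349), with diestrus below all estrus arrays. On 5 of the 9 arrays Arntl lay below the array median, where a signal above background was not established.

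Rora, whose product activates Arntl through the element that REV-ERB proteins occupy, stood at 9.27, 9.30 and 9.42 in diestrus, at 9.03, 9.10 and 8.97 in estrus and at 8.97, 9.05 and 9.05 in immature oviduct. All 3 diestrus arrays lay above the others by at least 0.16, and the arrays of each group lay close together. Rora differed by 0.30 ± 0.06 for diestrus minus immature and by 0.29 ± 0.06 for diestrus minus estrus (adjusted p = 0.0586 and 0.120). Hlf, the remaining PAR family activator, stood at 9.19, 9.01 and 9.04 in diestrus, at 8.77, 8.91 and 8.67 in estrus and at 8.75, 8.64 and 8.85 in immature oviduct. Like Dbp and Tef it had its highest mean in diestrus, by 0.34 ± 0.08 over immature and 0.30 ± 0.08 over estrus (adjusted p = 0.108 and 0.240). Hlf lay below the array median on 4 of the 9 arrays, all of them estrus or immature. Nfil3, a repressor at the same D-boxes, differed the other way, by -0.23 ± 0.09 for diestrus minus immature and -0.11 ± 0.09 for diestrus minus estrus (adjusted p = 0.279 and 0.850).

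Bhlhe41 (DEC2), which represses at E-boxes, stood at 8.59, 8.83 and 8.03 in diestrus, at 7.71, 8.30 and 7.75 in estrus and at 7.48, 7.53 and 7.97 in immature oviduct. These values lay below the median on all 9 arrays, so that a signal above background was not established. The difference was 0.83 ± 0.23 for diestrus minus immature, with no overlap, and 0.57 ± 0.23 for diestrus minus estrus (adjusted p = 0.139 and 0.453). Its paralog Bhlhe40 (DEC1) differed by 0.16 ± 0.12 and 0.27 ± 0.12 in the same comparisons. Cry2 differed by 0.15 ± 0.14 for diestrus minus immature and by 0.23 ± 0.14 for diestrus minus estrus (adjusted p = 0.692 and 0.712), with a sign opposite to that of Cry1. Ciart, the repressor gene with 3 E-boxes shown above, had 2 probe sets that disagreed in size, with 0.17 ± 0.18 and 0.54 ± 0.27 for diestrus minus immature (adjusted p = 0.745 and 0.434), and both were lowest on immature 1. Nfil3 and both Ciart probe sets lay below the median on 8 of the 9 arrays.

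The genes whose values over the 9 arrays were most like those of the 3 clock genes with the largest differences were found by the root mean square difference of log2 values after each gene was centred on its own mean. Each gene was taken by its brightest probe set. Genes whose highest group mean lay below 8.875, the median of all values, were not ranked. The clock genes Bhlhe41, Ciart and Nfil3 were among those left out, so the nearest genes named here are the nearest among the genes ranked only. Among 11246 genes ranked, Dbp was the nearest to Nr1d1, at 0.16, followed by the cholesterol transporter gene Abca1 at 0.35 and Nr1d2 at 0.35. Nr1d1 itself varied by 0.66 on this scale. For Dbp the nearest were Nr1d1 at 0.16, Nr1d2 at 0.26 and Cdcp3 at 0.30. For Nr1d2 they were Per3 at 0.15, Tef at 0.16 and the nuclear noncoding RNA Malat1 at 0.16. The likeness to Nr1d1 was not mutual: for Nr1d2, Nr1d1 held only rank 4169, at 0.35, while Nr1d2 itself varied by 0.34. Dbp held rank 150 for Nr1d2. Tef and Per3 held ranks 11 and 12 for Dbp, and Per1 rank 92. At the other end, Arntl was 11179th, Cry1 10840th and Clock 10190th for Nr1d1, and Per2 was 4523rd. On immature 1, Abca1 deviated from its mean by -0.38, against -1.06 for Nr1d1. These ranks rest on 9 arrays in 3 groups and on the size of each gene's variation as well as on its shape.

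Several other lists of genes differed between the arrays, and their part in the values above was not tested. The 9 measured temperature response genes averaged 11.37 to 11.45 in diestrus, 11.68 to 11.91 in estrus and 11.57 to 11.77 in immature oviduct. They did not all fall: 2 of the 9 had a higher mean in diestrus than in immature oviduct, by up to 0.43. In diestrus relative to estrus 1 of the 9 had a higher mean, by 0.30. Of the 9, 2 passed for diestrus minus immature and 1 for diestrus minus estrus, where 1.00% and 0.159% of all probe sets did. The chaperone gene Hsph1 fell by 0.81 ± 0.12 in diestrus relative to estrus and by 0.64 ± 0.12 relative to immature (limma adjusted p = 0.0452 and 0.0470), and Hsp90aa1 fell by 0.40 ± 0.07 relative to immature (adjusted p = 0.0342). Of 11 measured glucocorticoid response genes, 1 passed for diestrus minus immature, where 1.00% of all probe sets did. It was Nfkbia, which encodes an inhibitor of NF-kappa B and fell by 0.29 ± 0.05 (adjusted p = 0.0442), while 7 of the 11 had a higher mean in diestrus. The list averaged 10.51 to 10.70 in diestrus, 10.54 to 10.75 in estrus and 10.52 to 10.62 in immature oviduct. Of 17 immediate early genes, 1 passed for diestrus minus immature, where 1.00% of all probe sets did. It was Btg2, an antiproliferative gene that rose by 0.42 ± 0.07 in diestrus (limma adjusted p = 0.0299). In diestrus 10 of the 17 had a higher mean than in immature oviduct, as had 15099 of all 28214 probe sets. The list averaged 9.18 to 9.27 in diestrus, 9.19 to 9.25 in estrus and 9.20 to 9.27 in immature oviduct.

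Markers of other cells were uneven as well, and their part in the values of the clock genes was not tested. The 10 measured ovarian markers averaged 8.01 to 9.47 in diestrus, 7.99 to 8.14 in estrus and 7.97 to 9.09 in immature oviduct. Diestrus 2 (9.47), immature 2 (9.09) and diestrus 3 (8.63) were the high arrays. Nr1d1 was at 12.11 on diestrus 2, its highest value, at 11.04 on immature 2 and at 11.48 on diestrus 3. On diestrus 1, where these markers averaged 8.01, Nr1d1 was at 11.89. For diestrus minus immature, 5 of these 10 markers had a higher mean and 5 a lower one. Of the 10, 1 passed, where 1.00% of all probe sets did. It was Star, the cholesterol carrier of steroid synthesis, which rose by 0.74 ± 0.14 (limma adjusted p = 0.0463). Fat cell markers, 6 measured, averaged 8.09 to 8.38 in diestrus, 8.17 to 8.33 in estrus and 8.30 to 8.97 in immature oviduct, with the highest value on immature 1, the array lowest in Nr1d1 and Dbp. On estrus 3, the array lowest in both genes in its group, the fat cell markers averaged 8.31. Smooth muscle markers averaged 11.48 to 12.25 in diestrus, 11.48 to 11.64 in estrus and 11.42 to 11.69 in immature oviduct, with the highest value on diestrus 3. Leukocyte markers averaged 8.88 to 9.12 in diestrus, 8.81 to 8.95 in estrus and 8.37 to 8.63 in immature oviduct. Of the 7 measured, 1 passed in each comparison with immature oviduct, where 1.00% (diestrus) and 0.0851% (estrus) of all probe sets did. It was the plasma cell gene Jchain, which rose by 2.16 ± 0.20 in diestrus and by 2.05 ± 0.20 in estrus (limma adjusted p = 0.00301 and 0.0182). Secretory cell markers averaged 11.17 to 11.63 in diestrus, 10.89 to 11.04 in estrus and 10.78 to 11.16 in immature oviduct. Of the 5 measured, 1 passed for diestrus minus immature, against the same 1.00%. It was the chaperone gene Clu, which rose by 0.64 ± 0.11 (limma adjusted p = 0.0356). Ciliated cell markers averaged 11.24 to 11.44 in diestrus, 11.25 to 11.44 in estrus and 11.34 to 11.63 in immature oviduct.

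A contrast of diestrus with the mean of estrus and immature was added after the values had been seen. In it 260 probe sets (0.922%) passed limma's test, and 0 of the 9 clock genes did. Clock differed by -0.22 ± 0.05 (adjusted p = 0.0774), Cry1 by -0.29 ± 0.07 (adjusted p = 0.103) and Nr1d1 by 1.10 ± 0.28 (adjusted p = 0.118). Of the 20 other clock genes 1 passed, Rora, which rose by 0.30 ± 0.05 (limma adjusted p = 0.0391). Rora passed in none of the planned comparisons, and it was named after its values had been seen.

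Weights estimated for each array changed the calls: with them Nr1d1, Per3 and Clock passed for diestrus minus immature, and 7 genes, all but Per1 and Per2, for diestrus minus estrus, where 4.57% and 11.8% of all probe sets passed, with estrus 3 alone given a weight of 8.16 against 0.32 to 2.16 for the other 8 arrays. Clock also passed for diestrus minus immature with a filter on low intensity (adjusted p = 0.0495), where 2.53% of the probe sets kept passed, and without diestrus 3 (adjusted p = 0.0396), where 1.89% passed.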

How the data were processed

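RNA of 9 pools of oviduct tissue was measured on Affymetrix arrays. Per the submitters' processing notes, the deposited log2 values came from Affymetrix Expression Console with RMA, a method of background correction, quantile normalization and median polish that tends to compress fold changes. The log base was inferred from the range of the values. Software versions are not given in the labels. Precision is limited by the number of arrays.

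Symbols came from the platform's annotation: 21640 of 28214 probe sets had 1 symbol, 1321 several and 5253 none. No probe set with several symbols named a clock gene of the list. For genes with several probe sets the brightest stood for the gene.

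One limma fit (version 3.58.1, R 4.3.3) covered the 3 groups, using lmFit and eBayes with two-sided tests and Benjamini-Hochberg adjustment over all probe sets, after a test on simulated data. Python 3.11.15 with pandas 2.3.3 made the tables, and matplotlib 3.10.9 the figures. The 10 genes and the lists were chosen with earlier results of these data known. All 10 genes were to be named, with called members of the other lists and, whatever their result, Arntl, Cry2, Hlf, Nfil3 and Bhlhe41; Rora, Bhlhe40 and Ciart were added after their values were seen. Replicate numbers were not taken to pair the arrays in the main fit. Deviations of same-numbered arrays correlated at -0.29 to 0.17, those of other arrays at -0.26 to 0.29, and these ranges do not decide whether arrays were paired. Between estrus and diestrus, same-numbered arrays correlated at 0.12, 0.17 and 0.06 and the others at -0.13 to 0.007. Same-numbered arrays correlated at -0.02, -0.29 and -0.03 between immature and estrus, and at 0.10, -0.03 and -0.02 between immature and diestrus. Each alternative replaced 1 setting, or 2 for the robust prior and its trend: the replicate block, a low-intensity filter, probe sets with 1 symbol only, 3 further normalizations, array weights, a robust prior with a trend on intensity, only the arrays compared, an adjusted p under 0.01 and each array left out.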

Additional observations from a re-analysis of the deposited data

How the results depend on the processing

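None of the 9 clock genes was called in the main fit. For diestrus minus immature their number became 1 with the low-intensity filter, where 2.53% of the probe sets kept were called. It became 3 with array weights, where 4.57% of all probe sets were called. It was 0 to 1 when single arrays were left out (1, Clock, without diestrus 3, where 1.89% were called). For diestrus minus estrus it became 7 with array weights, in which 1 estrus array dominates and 11.8% of all probe sets were called, and stayed 0 with each array left out. Over all probe sets, 282 were called for diestrus minus immature, 24 for estrus minus immature and 45 for diestrus minus estrus. Diestrus minus immature gave 121 with the replicate block, 1288 with array weights, 85 with only the 6 arrays compared and 31 at an adjusted p under 0.01. Estrus minus immature gave 4 with the block, 12 with only probe sets with 1 symbol, 5 with cyclic loess, 1023 with array weights and 2 at the stricter threshold. Diestrus minus estrus gave 13 with the block, 131 with the low-intensity filter, 91 with only probe sets with 1 symbol, 3331 with array weights, 0 with only the 6 arrays compared (2256 at an unadjusted p under 0.05) and 1 at the stricter threshold. Leaving out single arrays gave 41 to 533 calls for diestrus minus immature, 1 to 95 for estrus minus immature and 1 to 105 for diestrus minus estrus. The cause of these changes was not tested.

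With the replicate block the number of clock genes called stayed at 0 in every comparison. The signs of small differences turned. With array weights, estrus minus immature was -0.10 for Nr1d2, -0.025 for Per1 and -0.18 for Dbp. With single arrays left out, estrus minus immature ranged from -0.14 to 0.26 for Nr1d2, -0.091 to 0.28 for Per1, -0.30 to 0.34 for Dbp and -0.40 to 0.25 for Nr1d1, diestrus minus immature from -0.0083 to 0.30 for Per1, and diestrus minus estrus from -0.094 to 0.24 for Per1. The other differences of the 9 genes kept their sign in all 19 alternatives. A mean over several probe sets gave no other value, since each of these genes had 1.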
